A study of Mus musculus with 6 samples.

Results

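Glypicans and syndecans are the main families of heparan sulfate proteoglycans at the cell surface. The 10 mouse genes of both families, *Gpc1* to *Gpc6* and *Sdc1* to *Sdc4*, were taken by symbol from 56748 gene identifiers, and all 10 were among the 18188 genes that passed the filter on low counts and were tested. They were measured by RNA-Seq in ureters of wildtype NMRI embryos, explanted at E12.5 and cultured for 18 h on a membrane with 15 mM LiCl (3 samples) or with water as control (3 samples). LiCl is a salt that inhibits the kinase GSK3B and thereby activates CTNNB1-dependent WNT signaling, and the comparison asks how 18 h of this treatment changed expression in the whole explant. Each sample holds epithelium and mesenchyme together, and LiCl reaches both. After a longer LiCl culture, the paper's in situ hybridization found the WNT target *Axin2* newly in the epithelium, while in the mesenchyme it appeared little changed. Neither the number of ureters per sample nor separate litters are given. The p-values therefore measure the spread between these samples, which may be technical.

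Both families consist of a core protein that carries long, sulfated heparan sulfate chains, which bind WNT, FGF, BMP and hedgehog ligands close to their receptors. Glypicans are held to the membrane by a GPI anchor, which enzymes can cut. Syndecans span the membrane, their outer part can be shed by metalloproteinases, and their short cytoplasmic tail binds PDZ-domain proteins. In developing epithelial organs such as the kidney, heparan sulfate proteoglycans are known as partners of growth factors that drive branching, and loss of *GPC3* causes a human overgrowth syndrome with kidney malformations.

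The total count lay between 28473436 and 31266945 per sample, and replicates within a group differed beyond counting noise, with a chi-square of 5.57 to 13.4 for each degree of freedom. The summed FPKM of 10 WNT readout genes was 75.4 to 82.3 in control and 146 to 165 in LiCl samples, and 9 of the 10 rose. Libraries of LiCl replicates 1 and 3 stood apart by skeletal muscle genes, with a summed FPKM over 8 genes of 9.72 and 20.9, against 1.56 in LiCl replicate 2 and 0.764 to 1.87 in controls. Counts and calls that changed without both libraries are given with and without them. Without them, 1 LiCl sample remains, which is then assumed to vary like the controls.

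The syndecan family is defined by its cytoplasmic end, and the last 96 coding bases before the stop codon are shown. The reason is that *Sdc2*, the member with the largest change, shares most of the last 12 with members that changed the other way or less. The sequences are from GENCODE vM21 transcripts (GRCm38), and capitals mark the last 12 bases, which encode the end that binds PDZ domains. Of these 12 bases, 9 were identical in all 4 genes, against 16 of all 96 bases when compared without gaps.
Sdc1: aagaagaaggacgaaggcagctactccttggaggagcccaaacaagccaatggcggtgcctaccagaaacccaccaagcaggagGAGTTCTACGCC
Sdc2: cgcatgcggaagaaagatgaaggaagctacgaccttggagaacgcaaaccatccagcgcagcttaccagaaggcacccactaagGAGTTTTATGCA
Sdc3: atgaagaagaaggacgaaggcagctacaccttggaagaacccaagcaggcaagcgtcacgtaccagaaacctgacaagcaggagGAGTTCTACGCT
Sdc4: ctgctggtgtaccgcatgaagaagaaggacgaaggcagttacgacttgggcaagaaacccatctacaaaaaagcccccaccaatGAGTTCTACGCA

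Over their aligned bases, pairs of syndecans were identical at 65.3% (*Sdc2* and *Sdc4*) to 73.7% (*Sdc3* and *Sdc4*), and the longest run of bases shared by any pair was 29. Pairs of glypicans were identical at 57.3% (*Gpc2* and *Gpc4*) to 68.5% (*Gpc4* and *Gpc6*), with no shared run above 17 bases. *Sdc2* and *Sdc4* have the short coding sequences of the syndecans with 609 and 597 bases, whereas *Sdc1* has 936 and *Sdc3* has 1329. In the annotation of the older assembly, exons of *Gpc1*, *Gpc5* and *Sdc3* overlap genes on the opposite strand (*Ankmy1*, *Gm20713*, and *Gm12970* with *Gm26716*), and exons of *Gpc2* overlap *Gm43720* on the same strand. The strand setting of the counting is not given in the sources used here, so the counts of these 4 genes are less certain than those of the other 6.

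Levels were first compared between the genes in FPKM, which corrects for gene length. *Gpc3* was by far the most abundant member, with 211.9 ± 4.68 FPKM in control (SD, n = 3), above 99.5% of the genes tested or equal to them. A middle group followed with *Gpc1* at 35.7 ± 0.44, *Sdc2* at 34.1 ± 1.89, *Sdc1* at 29.4 ± 0.18, *Sdc3* at 26.0 ± 1.05 and *Sdc4* at 22.0 ± 2.21 FPKM. *Gpc4* (15.7 ± 0.94), *Gpc6* (11.7 ± 1.72) and *Gpc2* (8.65 ± 0.93) were lower, and *Gpc5* was the lowest with 0.47 ± 0.10 FPKM. In control, the sample ranges of neighbours in this order overlapped for *Gpc1* and *Sdc2* alone. After LiCl, *Sdc2* stood second with 52.4 ± 2.34 FPKM and no longer overlapped *Gpc1* at 36.7 ± 1.51. *Gpc1* then overlapped *Sdc1* (33.7 ± 1.70), and *Gpc6* (11.1 ± 1.00) overlapped *Gpc2* (9.09 ± 1.24). All other genes kept their place in the order.

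**Figure D1:**
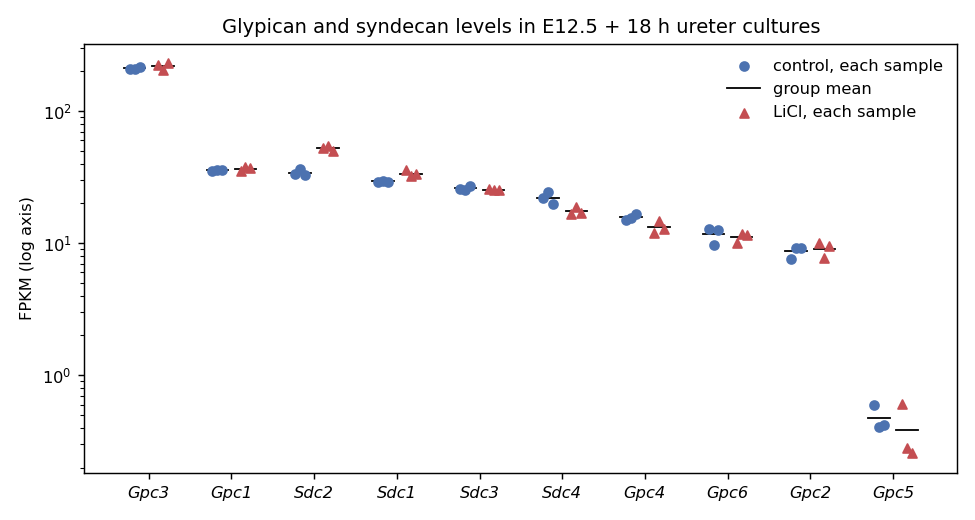
FPKM on a log axis of the 10 genes, ordered by their control mean, with each control sample as a circle, each LiCl sample as a triangle and the group mean as a line. *Gpc3* lies above 200 FPKM in all 6 samples, *Gpc5* below 0.7 FPKM, and the LiCl samples of *Sdc2* (49.8 to 54.4 FPKM) lie above its controls (32.7 to 36.2 FPKM).

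Within each gene, control and LiCl were compared on the counts with edgeR's quasi-likelihood test, adjusted over all genes tested. At an adjusted p under 0.05, *Sdc1* and *Sdc2* rose, *Gpc4* and *Sdc4* fell, and the other 6 genes did not pass. The 2 of 10 genes that rose stand beside 21.1% of all genes tested, and the 2 of 10 that fell beside 22.4%, so the families were called about as often as genes in general. None of the 10 reached the study's fold change minimum, a log2 fold change above 1 or below -1, which 2.74% of all genes passed upwards and 4.59% downwards. At an unadjusted p under 0.05 with the same minimum, edgeR also gave 0 members, and DESeq2 called 0. The groups did not overlap in 4 of the 10 genes, against 54.2% of all genes. The median log2 fold change was -0.01 over the 10 genes, as it was over all genes tested. Exact permutation of 3 against 3 samples has 0.1 as its smallest p, so each call rests on the edgeR model across all genes.

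**Figure D2:**
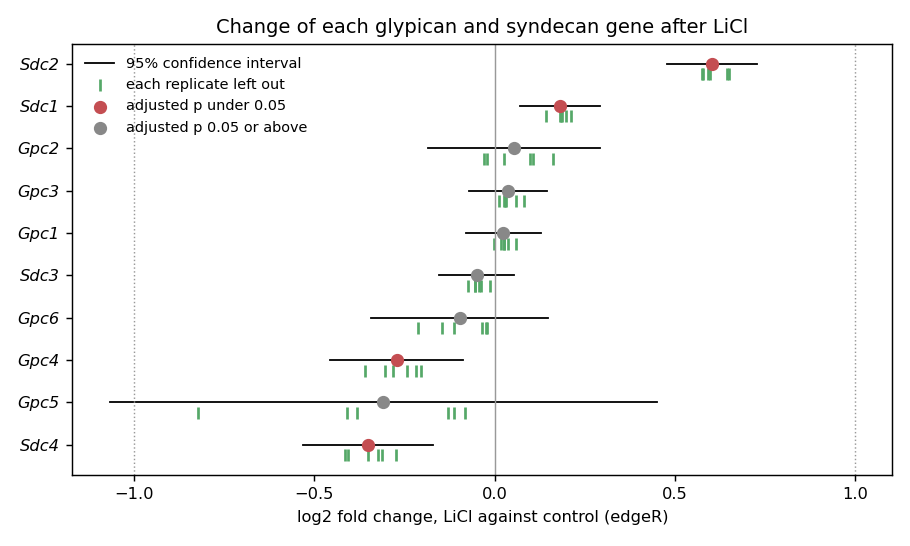
Log2 fold change of each gene (LiCl against control) with its 95% confidence interval, and green ticks for the fits that leave out 1 of the 6 samples each. Dotted lines mark -1 and 1. *Sdc2* (0.60) lies apart from the other 9 genes, and the interval of *Gpc5* is the widest. The ticks stay on 1 side of 0 for every gene except *Gpc1* and *Gpc2*, so also for genes that did not pass.

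*Sdc2*, a syndecan known mainly from mesenchymal cells, showed the largest change. Its level in CPM, the TMM-normalised read count for a library of standard size, was 119.6, 129 and 117 in the controls (replicates in order), and 186, 192 and 175 after LiCl. Every LiCl sample was thus above every control, and the gap between the groups was wider than the spread within either. The mean rose from 122 ± 6.23 to 185 ± 8.67 CPM, 1.52-fold, with a log2 fold change of 0.60 (SE 0.06, 95% interval 0.48 to 0.73, adjusted p = 4.3e-05). Without LiCl replicates 1 and 3, the log2 fold change was 0.67 (adjusted p = 0.00088). *Sdc2* passed the threshold under all 16 alternatives that give an adjusted p per gene, with log2 fold changes from 0.57 to 0.67.

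*Sdc1*, a syndecan typical of epithelia, rose slightly. The controls were close together with 114, 113 and 112 CPM, and LiCl replicates 1 to 3 had 135, 123 and 126 CPM. The groups did not overlap, although the lowest LiCl sample was near the controls. The log2 fold change was 0.18 (SE 0.05, 95% interval 0.07 to 0.29, adjusted p = 0.0156), a 1.13-fold difference. The call was lost without control replicate 3 (0.18, adjusted p = 0.052) and without LiCl replicates 1 and 3 together (0.13, adjusted p = 0.25).

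*Sdc4*, a widely expressed syndecan of focal adhesions, fell. Its level was 56.7, 62.2 and 51.2 CPM in control and 42.3, 48.0 and 43.0 CPM after LiCl. The highest LiCl sample, replicate 2, stayed below the lowest control, replicate 3. The log2 fold change was -0.35 (SE 0.08, 95% interval -0.53 to -0.17, adjusted p = 0.0066), a fold of 0.784. It passed in each fit that left out 1 sample, and missed the threshold without LiCl replicates 1 and 3 together (-0.23, adjusted p = 0.19).

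*Sdc3*, known best from neurons and muscle precursors, had 157, 151 and 164 CPM in control and 154, 151 and 151 CPM after LiCl. The groups overlapped, and the log2 fold change of -0.05 had a 95% interval from -0.15 to 0.05 (adjusted p = 0.41). The difference was within the spread of the samples.

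*Gpc4* was the glypican that passed the test, and it fell. The controls had 40.3, 41.3 and 44.9 CPM and the LiCl samples 31.8, 39.2 and 33.8 CPM. The groups did not overlap, but LiCl replicate 2 was close to control replicate 1. The log2 fold change was -0.27 (SE 0.08, 95% interval -0.46 to -0.09, adjusted p = 0.0238), a fold of 0.828. This call depended on single libraries: the adjusted p was 0.10 without control replicate 3, 0.077 without LiCl replicate 1, 0.092 without LiCl replicate 3, and 0.51 without LiCl replicates 1 and 3 together, where the log2 fold change was -0.10.

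*Gpc3* lies next to *Gpc4* on chromosome X with 0 annotated genes between them. Its level was 571, 568 and 589.9 CPM in control and 601, 556 and 616 CPM after LiCl. The LiCl samples thus lay on both sides of the controls. The log2 fold change was 0.04 (95% interval -0.07 to 0.15, adjusted p = 0.58). The log2 ratio of *Gpc4* to *Gpc3* in FPKM was -3.80, -3.76 and -3.70 in control and -4.22, -3.81 and -4.17 after LiCl, without overlap but with LiCl replicate 2 near the controls.

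The remaining glypicans overlapped between the groups. *Gpc1*, the glypican with the second highest level, had 185, 185 and 188 CPM in control and 181, 196 and 190.4 CPM after LiCl, and its log2 fold change of 0.02 had the 95% interval -0.08 to 0.13 (adjusted p = 0.71). *Gpc2*, a glypican known from the developing nervous system, had 33.0, 39.4 and 39.8 CPM in control and 42.9, 32.9 and 40.7 CPM after LiCl. Its log2 fold change was 0.05 (95% interval -0.19 to 0.29, adjusted p = 0.71). *Gpc6*, the closest relative of *Gpc4* in coding sequence, had 83.7, 62.7 and 81.7 CPM in control and 63.9, 76.1 and 73.4 CPM after LiCl, with control replicate 2 as the lowest of all 6 samples. Its log2 fold change was -0.10 (95% interval -0.34 to 0.15, adjusted p = 0.51).

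*Gpc5*, which lies on chromosome 14 beside *Gpc6* with no protein-coding gene between them, was the member with the fewest reads. It had 77, 56 and 58 counts in control and 84, 35 and 32 counts after LiCl. LiCl replicate 1 was the highest of all samples, whereas LiCl replicates 2 and 3 were below every control. The log2 fold change of -0.31 had an interval from -1.07 to 0.45 (adjusted p = 0.49), which spans a fall past the study's fold minimum as well as a rise. Without LiCl replicate 1, the log2 fold change was -0.82 (adjusted p = 0.040), and this was the only 1 of 14 alternatives in which *Gpc5* passed.

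Because FPKM is per gene length, the members of a family could also be added up. The summed FPKM of the 4 syndecans was 110.2, 115.3 and 109.0 in control and 130.8, 130.7 and 125.4 after LiCl, and the mean was 1.16-fold higher without overlap of the groups. The summed FPKM of the 6 glypicans was 284 ± 7.10 in control and 290.4 ± 10.8 after LiCl, with overlapping groups. *Gpc3* alone contributed 74.6% ± 0.29 of the glypican sum in control and 75.7% ± 1.498 after LiCl, so this sum follows 1 gene.

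The make-up of the syndecans differed more than their sum. *Sdc2* contributed 30.2%, 31.4% and 30.0% in control and 40.5%, 41.6% and 39.8% after LiCl, a difference of 10.05 percentage points between the means. *Sdc4* contributed 19.7% ± 1.42 in control and 13.5% ± 0.85 after LiCl. *Sdc3* contributed 23.4% ± 1.56 and 19.7% ± 0.46, without overlap, although its own level overlapped between the groups. *Sdc1* contributed 26.4% ± 0.61 and 26.1% ± 1.31, with overlapping groups. Within each sample, the log2 ratio of *Sdc2* to *Sdc4* was 0.61, 0.58 and 0.72 in control and 1.67, 1.53 and 1.56 after LiCl. The ratio was thus higher in all LiCl samples, by 0.95 on the log2 scale. Shares and ratios are descriptions and were given no test, and all shares of a family are linked, since they sum to the whole.

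**Figure D3:**
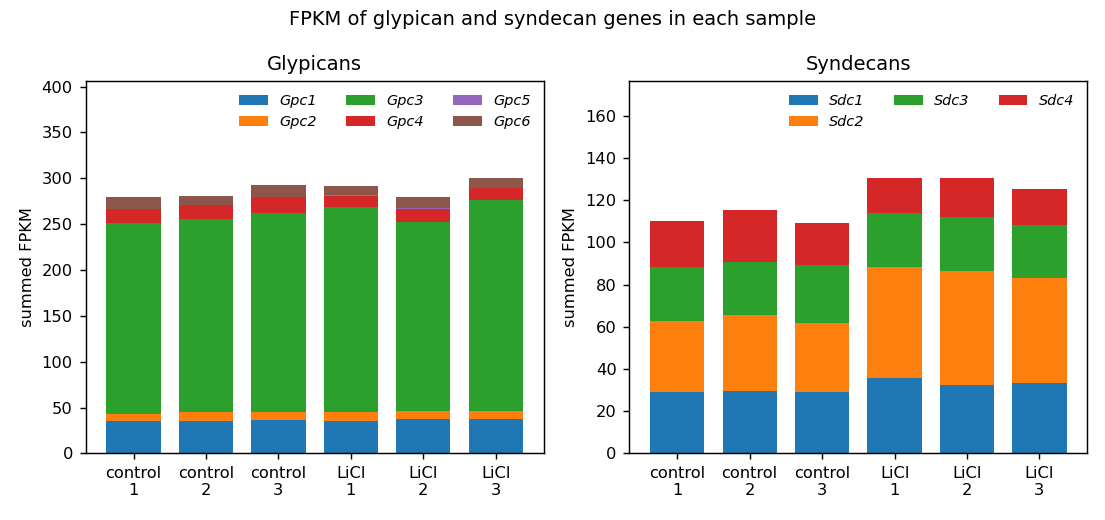
Summed FPKM of the 6 glypicans (left) and the 4 syndecans (right) in each sample, stacked by gene. *Gpc3* fills most of each glypican bar, and the *Sdc2* segment is larger and the *Sdc4* segment smaller in the 3 LiCl samples than in the 3 controls.

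For 7 of the 10 genes (*Gpc2* to *Gpc5*, *Sdc1*, *Sdc3* and *Sdc4*), RefSeq promoter windows of 250 bases before the annotated start were at hand (GRCm38.p6). Those of *Sdc1*, which rose, and of *Gpc4* and *Sdc4*, which fell, are shown on the strand of the gene, with the letters GGGCGG or CCGCCC, the core of GC boxes, in capitals.
Sdc1, chr12:8771146-8771395, plus strand: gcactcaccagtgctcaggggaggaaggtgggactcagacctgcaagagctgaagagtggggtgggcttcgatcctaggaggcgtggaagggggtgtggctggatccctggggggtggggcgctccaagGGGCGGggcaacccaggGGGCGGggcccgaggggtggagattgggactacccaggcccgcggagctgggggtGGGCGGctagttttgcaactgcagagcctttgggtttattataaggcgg
Sdc4, chr2:164443189-164443438, minus strand: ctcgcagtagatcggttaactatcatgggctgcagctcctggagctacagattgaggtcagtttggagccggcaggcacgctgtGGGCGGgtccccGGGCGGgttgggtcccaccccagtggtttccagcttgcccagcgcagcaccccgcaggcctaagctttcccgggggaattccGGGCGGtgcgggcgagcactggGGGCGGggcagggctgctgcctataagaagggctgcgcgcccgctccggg
Gpc4, chrX:52164924-52165173, minus strand: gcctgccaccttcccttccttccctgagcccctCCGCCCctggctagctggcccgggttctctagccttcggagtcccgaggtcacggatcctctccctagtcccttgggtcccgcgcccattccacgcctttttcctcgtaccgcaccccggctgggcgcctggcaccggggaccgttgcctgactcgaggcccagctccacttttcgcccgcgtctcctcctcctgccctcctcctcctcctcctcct

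GGGCGG was present on either strand in 7 of these 7 windows, and in 32.7% of all 32851 promoter windows of this length. The GC content of the 7 windows ranged from 51.2% (*Gpc5*) to 76.4% (*Sdc3*). That of all windows was not measured, so the shares are not matched for GC content, and enrichment was not tested. CTTTGA, the core letters of the TCF/LEF site, was searched on both strands and was found in 0 of the 7 windows and in 13.8% of all windows. *Sdc1*, *Sdc4* and *Gpc4* were thus alike in holding GGGCGG (3, 4 and 1 matches) and lacking CTTTGA. Both searches cover these letters in these windows and nothing farther away. *Gpc1*, *Gpc6* and *Sdc2* were not searched.

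The other genes of the pathway were counted in 7 lists with 77 genes, of which 75 were tested. Among these, 7 rose (9.33%) and 22 fell (29.3%), beside 21.1% and 22.4% of all genes, and 46 did not pass. Their median was -0.05 on the log2 scale. Without LiCl replicates 1 and 3, 6 rose and 11 fell, in a fit that called 10.4% of all genes higher and 10.9% lower. Genes named below that are neither the most abundant of their list nor past the study's fold minimum were chosen after their values were seen, and all folds are from edgeR.

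Of the 12 linker and precursor enzymes, which build the starting sugars and the sulfate donor, 2 rose and 4 fell. *Papss1*, which makes the sulfate donor and was the most abundant, had 56.3 ± 0.65 FPKM in control and 53.1 ± 0.78 after LiCl (log2 fold change -0.10, adjusted p = 0.072). Its relative *Papss2* fell from a much lower level (2.07 to 1.36 FPKM, log2 fold change -0.62, adjusted p = 0.0030), and *Xylt1*, which adds the first sugar to the core protein, rose from 1.79 to 2.59 FPKM (0.52, adjusted p = 0.0087). None of the 5 chain polymerisation genes passed, among them *Extl3* with 27.8 ± 1.11 FPKM in control and 30.2 ± 1.40 after LiCl (adjusted p = 0.14). In this list, edgeR gave 0 of 5 genes at an unadjusted p under 0.05 as well, and DESeq2 called 0.

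Of the 15 tested genes for sulfation and epimerisation, 1 rose and 5 fell. *Ndst1*, which starts the sulfation of the chain, had 29.9 ± 2.28 and 32.3 ± 2.34 FPKM with overlapping groups (log2 fold change 0.09, adjusted p = 0.33). *Hs2st1*, the 2-O-sulfotransferase, rose from 14.4 ± 0.09 to 16.4 ± 0.58 FPKM (0.17, adjusted p = 0.0138). *Hs6st1*, a 6-O-sulfotransferase, fell from 14.0 ± 0.34 to 10.9 ± 0.26 FPKM (-0.37, adjusted p = 0.00029). *Hs3st4*, a 3-O-sulfotransferase, passed the fold minimum with a log2 fold change of -1.30 (adjusted p = 0.029), but from 22, 31 and 26 counts in control to 19, 6 and 6 after LiCl, so that LiCl replicate 1 was close to the controls.

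Of the 12 genes for chain editing and degradation, 1 rose and 5 fell. Both extracellular endosulfatases, which remove 6-O-sulfate groups from finished chains, were lower. *Sulf1* had 61.8, 57.3 and 61.8 FPKM in control and 42.9, 47.9 and 45.2 FPKM after LiCl (log2 fold change -0.43, adjusted p = 0.00030), and *Sulf2*, the most abundant of the list, had 66.1, 64.5 and 71.2 FPKM and 54.3, 62.7 and 57.8 FPKM (-0.22, adjusted p = 0.0177). Neither gene overlapped between the groups.

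Among 12 tested genes for processing and shedding of core proteins, 2 rose and 4 fell. *Notum*, which inactivates WNT ligands and has been proposed to cut the glypican anchor, is a WNT target and one of the WNT readout genes. It had 8.88, 9.47 and 7.44 FPKM in control and 40.9, 29.7 and 35.7 FPKM after LiCl, with a log2 fold change of 2.03 (adjusted p = 3.6e-06). *Mmp9*, a protease that can shed syndecans, rose from 0.68 ± 0.20 to 1.71 ± 0.14 FPKM (1.30, adjusted p = 0.00086). The far more abundant *Mmp2* did not pass, with 102.4 ± 2.63 and 109.2 ± 2.52 FPKM (adjusted p = 0.18). *Adam10*, another protease of this list, fell from 58.8 ± 2.50 to 51.7 ± 1.32 FPKM without overlap (-0.20, adjusted p = 0.0093). *Furin*, which cleaves glypican core proteins, fell from 15.9 ± 0.50 to 12.3 ± 0.24 FPKM (-0.39, adjusted p = 0.00019), and *Timp3*, a protease inhibitor, fell from 14.8 ± 0.45 to 9.99 ± 0.54 FPKM (-0.58, adjusted p = 4.7e-05).

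Of the 12 cytoplasmic partners of syndecans, 2 fell and 10 did not pass. *Gipc1*, a PDZ protein and the most abundant, fell from 72.8 ± 4.10 to 66.2 ± 2.20 FPKM (log2 fold change -0.15, adjusted p = 0.040), and *Farp1* fell from 42.9 ± 1.07 to 33.5 ± 2.39 FPKM (-0.38, adjusted p = 0.00080). Among the 7 other heparan sulfate proteoglycans, which include part-time carriers, 1 rose and 2 fell. *Cd44*, of which some splice forms carry the chains, had 1.84, 1.90 and 2.12 FPKM in control and 13.0, 9.24 and 12.3 FPKM after LiCl (log2 fold change 2.54, adjusted p = 1.2e-06). *Agrn*, a basement membrane proteoglycan and the most abundant, had 96.3 ± 3.54 and 106 ± 5.00 FPKM and did not pass (0.13, adjusted p = 0.068). *Tgfbr3* fell from 5.71 ± 0.35 to 3.91 ± 0.33 FPKM (-0.56, adjusted p = 0.00042).

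Without LiCl replicates 1 and 3, the calls became fewer in most lists. Of the linker and precursor enzymes 0 then rose and 1 fell, of the sulfation and epimerisation genes 2 rose and 4 fell, and of the chain editing and degradation genes 1 rose and 2 fell. Of the processing and shedding genes 2 rose and 2 fell, of the syndecan partners 1 fell, and of the other proteoglycans 1 rose and 1 fell. Among the genes named above that had passed, *Xylt1* (log2 fold change 0.55), *Adam10* (-0.15), *Sulf2* (-0.11) and *Gipc1* (-0.19) missed the threshold. *Notum* (1.78), *Cd44* (2.24) and *Mmp9* (1.20) still had a log2 fold change above 1. That of *Hs3st4* was -1.99, but this fit leaves out LiCl replicate 1, which was near the controls with 19 counts. It keeps LiCl replicate 2 with 6 counts.

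**Figure D4:**
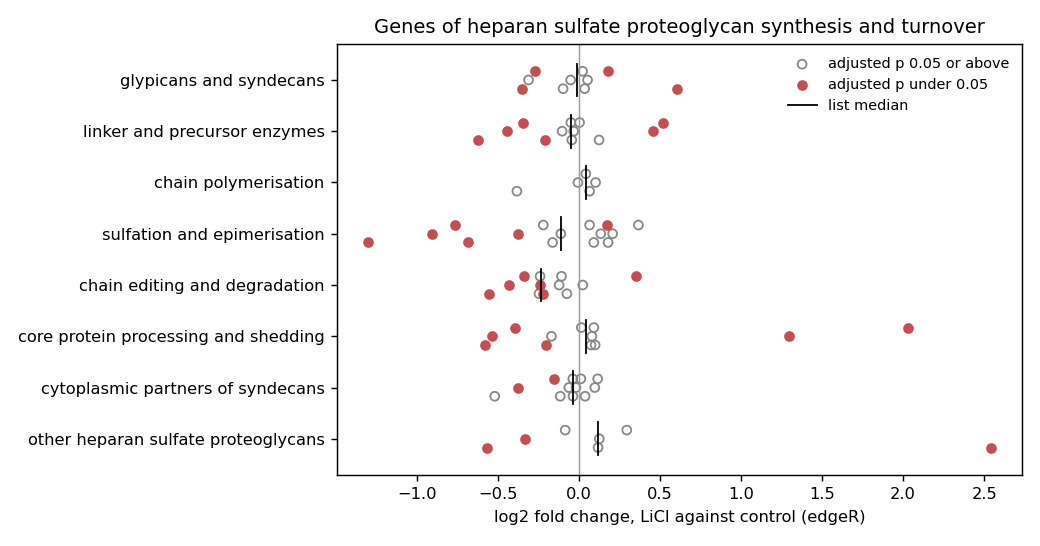
Log2 fold change (LiCl against control) of the glypicans and syndecans and of each tested gene in the 7 lists of the pathway. Filled points passed an adjusted p under 0.05, open points did not, and the line is the list median. *Notum* (2.03) and *Cd44* (2.54) lie farthest to the right, and none of the 10 glypicans and syndecans reaches 1 or -1.

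Markers of the tissues in the explant changed at the same time, in a fit that called 21.1% of all genes higher and 22.4% lower. The explants expressed both epithelial and mesenchymal markers. Of 12 epithelial markers, 7 fell and 1 rose, and their summed FPKM was 566 to 707 in control and 444 to 471 after LiCl. *Krt19* fell by 1.20 and *Cdh1* by 0.99 on the log2 scale, whereas *Epcam* rose by 0.37. *Sdc1*, a syndecan typical of epithelia, rose by 0.18 in the same samples, which do not show the tissue that expressed it. Of 12 mesenchymal markers, 7 fell and 3 rose, with a summed FPKM of 1159 to 1229.9 in control and 933 to 1026 after LiCl, and the log2 fold change was -1.64 for *Dcn*, -0.96 for *Pdgfrb*, -0.85 for *Pdgfra* and 0.30 for *Vim*, beside 0.60 for *Sdc2*. Of 6 smooth muscle markers 4 fell and none rose, and their summed FPKM was 25.0 to 37.0 in control and 18.9 to 24.7 after LiCl. In such bulk samples, fewer cells of a type and less RNA per cell cannot be told apart, and the part of tissue composition in the changes of *Sdc1*, *Sdc2*, *Sdc4* and *Gpc4* was not tested.

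Markers of other cell types that an explant can hold were counted in the same fit. Several of these counts are near the 21.1% of all genes that rose and the 22.4% that fell, or below them. Of 8 endothelial markers, 1 fell, with a summed FPKM of 102.4 to 131 in control and 98.6 to 121 after LiCl. Of 8 macrophage markers 4 fell and 1 rose (38.0 to 60.2 and 31.4 to 43.4 FPKM), of 6 erythroid markers 2 rose (647 to 970.2 and 872 to 1348 FPKM), and of 8 neural crest and neuronal markers 2 fell (61.0 to 72.1 and 44.9 to 64.4 FPKM). Of 7 tested kidney markers, 2 rose and 2 fell (34.7 to 39.3 and 30.9 to 34.5 FPKM). All 6 tested skeletal muscle genes rose, with the spread between LiCl samples given above. Without LiCl replicates 1 and 3, 5 epithelial markers fell and 1 rose, 7 mesenchymal markers fell and 1 rose, and *Vim* did not pass (0.20, adjusted p = 0.13). In that fit, 3 smooth muscle, 1 endothelial and 2 macrophage markers fell, 4 erythroid markers rose, 2 neural crest and neuronal markers rose and 2 fell, 1 kidney marker rose and 2 fell, and 1 skeletal muscle gene and 8 WNT readout genes rose.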

How the data were processed

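The authors deposited raw counts per gene for 6 RNA-Seq samples, without normalization, and FPKM values per sample, whose making is not described. In every gene checked (13480 with more than 50 counts in each sample), the FPKM equalled the count divided by a DESeq2 size factor and a gene length that was whole within 0.01. Libraries were poly-A selected and stranded, and sequenced by Novogene. Reads were aligned to GRCm39, with HISAT2 according to the methods, whereas the submitters' processing notes list fastp 0.23, STAR 2.7, featureCounts 2.0 and DESeq2 1.40. Annotation release and strand setting are not given in the sources used here. Symbols came from GENCODE vM21 (52073 of 56748 identifiers).

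The members and gene lists were chosen with earlier results of these data known. The test was edgeR's quasi-likelihood F test (edgeR 4.0.16, R 4.3.3) after filterByExpr and TMM, with Benjamini-Hochberg adjustment over 18188 genes. The standard error is the size of the log2 fold change divided by the square root of F. The genes named were the 10 members and, from the other lists, genes past an adjusted p of 0.05 and a log2 fold change of 1 in size, plus the most abundant gene of each list, and further genes of these lists chosen after their values were seen. Deviations of control and LiCl samples with the same replicate number had correlations of 0.03, -0.09 and 0.10. The summed FPKM of epithelial, endothelial, macrophage and erythroid markers ranked the replicate numbers in the same order in both groups. That of mesenchymal, smooth muscle, neural crest and neuronal, kidney and skeletal muscle markers did not. Whether samples with the same number shared a litter or dissection was not tested. Alternatives changed the scaling (RLE, or library size alone), the filter (none, or a minimum of 10 counts in all 6 samples), the tool (DESeq2 1.42.0, glmTreat, or limma 3.58.1 on log2(FPKM + 1) and log2(FPKM + 0.1) above a mean FPKM of 0.5, and on log2(FPKM + 1) unfiltered), the block (replicate number), the samples (each left out) and the unit of the shares (CPM). The fit without LiCl replicates 1 and 3 was chosen after seeing the data. The edgeR test, the DESeq2 test and limma on log2(CPM + 1) were run on simulated counts, and the other steps were not. The values of 1 pathway gene are not reported here.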

Additional observations from a re-analysis of the deposited data

How the results depend on the processing

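Over the alternatives, 149 fold changes of single genes kept their side of the threshold, 8 lost and 1 gained significance, and 0 reversed while called. Leaving out 1 sample also lowered the calls over all genes, to 16.7% to 19.6% higher and 17% to 19.7% lower, from 21.1% and 22.4%. The number of members that rose, 2, was 1 to 2 when each sample was left out in turn, and 1 without LiCl replicates 1 and 3, an alternative chosen after the data were seen. The number that fell, 2, was also 1 to 2 when each sample was left out (1 without control replicate 3 and without LiCl replicate 3, and 2 without LiCl replicate 1, then *Gpc5* and *Sdc4*), 1 with limma on log2(FPKM + 1) without filter, where *Gpc4* had an adjusted p of 0.095, and 0 without LiCl replicates 1 and 3. In the last fit fewer samples entered, 11 instead of 22 pathway genes fell, and the share of all genes that fell was 10.9% instead of 22.4%. Otherwise 5 to 9 pathway genes rose and 17 to 23 fell. With the replicate block, 2 members rose and 2 fell, *Gpc4* with an adjusted p of 0.035 and *Sdc1* of 0.039, and no call changed. No member passed at a log2 fold change of 1 under any alternative, glmTreat included. *Gpc5* entered 14 of the 16 alternatives, since its mean FPKM was below the minimum in the others. With CPM in place of FPKM, the shares of *Sdc3* and *Sdc4* fell by 5.23 and 3.90 percentage points, instead of 3.64 and 6.18. Scaling by library size alone moved the median log2 fold change over all genes from -0.01 to -0.05. The lowest counts behind named values were 32 to 84 for *Gpc5* and 6 to 31 for *Hs3st4*.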
